A study of Homo sapiens with 6 samples.

Results

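The genes that carry a cell from G1 into S phase were followed in HCT116 colon cancer cells that expressed a mutant or the wild-type form of the splicing factor PHF5A. The group held 10 genes: the D-type cyclins CCND1, CCND2 and CCND3, the cyclin-dependent kinases CDK4 and CDK6, the kinase inhibitors CDKN1B (p27) and CDKN1C (p57), and the pocket proteins RB1, RBL1 (p107) and RBL2 (p130). They were picked from the 60675 gene IDs of the expression table by symbol, with the FPKM values of these same 6 libraries already known, and all 10 symbols matched 1 row each. Since the members were chosen on this comparison, their differences between the groups are given as a description without a test. HCT116 is an established human colorectal carcinoma line. The K29Q cells stably expressed PHF5A K29Q, in which glutamine stands in place of a lysine, and the WT cells stably expressed wild-type PHF5A, so both groups carried an introduced PHF5A, and the labels do not say what became of the endogenous gene. PHF5A belongs to SF3B, a splicing complex that finds the branch point of introns. Total RNA of 3 K29Q and 3 WT libraries was sequenced. Whether these came from separate cultures or lines is not stated, so p-values cover the spread between the libraries at hand, which may be technical.

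Expression was given as FPKM, fragments per kilobase of transcript scaled to the mapped fragments of the library, which allows levels to be compared between genes. The depth is not stated. From the steps in which low values moved, it was estimated at 33900000 to 41000000 fragments per library in K29Q and at 36600000 to 38400000 in WT, if 1 step was 1 fragment. PHF5A averaged 44.1 ± 2.38 FPKM in K29Q and 33.1 ± 1.06 FPKM in WT (SD, n = 3 each), which may join the endogenous and the introduced gene. Its groups did not overlap, at 41.4 to 45.9 FPKM in K29Q and 32.4 to 34.4 FPKM in WT. The level of PHF5A and the mutation thus differed together, and their parts in the differences below cannot be told apart. The run name in the column headers, read here as the flow cell, put K29Q 1, K29Q 2 and WT 2 on flow cell A, and K29Q 3, WT 1 and WT 3 on flow cell B. A difference within flow cell A thus rests on WT 2 alone for WT, and within flow cell B on K29Q 3 alone for K29Q. Of 8 epithelial markers 7 had at least 1 FPKM in every library, with summed levels of 1176 to 1233 FPKM in K29Q and 1275 to 1446 FPKM in WT. These sums did not overlap and were made up largely of KRT19 (601 FPKM in K29Q, 699 FPKM in WT) and KRT8 (320 FPKM in K29Q, 367 FPKM in WT). Of the 8 markers 5 were lower on average in K29Q and 3 (EPCAM, CLDN3 and CLDN7) slightly higher. The part of these sums in the differences below was not tested. Of 6 leukocyte and 5 endothelial markers 0 reached 1 FPKM in any library, and 1 of 6 fibroblast markers, COL1A1, was above 1 FPKM in all. The 6 fibroblast markers summed to 4.59 to 5.95 FPKM in K29Q and to 4.37 to 5.26 FPKM in WT, and 2 of them were listed at 0 throughout. On the first principal component of all tested genes the K29Q libraries lay from -14.9 to -4.76, WT 1 lay beside them at -4.72, and WT 2 and WT 3 lay at 13.2 and 18.0.

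D-type cyclins are made when growth signals reach a cell in G1. They bind and activate CDK4 or CDK6, and these kinases phosphorylate the pocket proteins, which otherwise hold E2F transcription factors in check. p27 and p57 belong to the CIP/KIP family, which blocks cyclin E and cyclin A complexes of CDK2 and also binds the cyclin D kinases. Cyclin D1 is a frequent target of mitogenic and WNT signalling in colon epithelium and its tumours.

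The promoters of both kinases and of RBL1 are printed because CDK4 and CDK6 differed between the groups in opposite directions and because RBL1 held the E2F motif. They are RefSeq sequences on GRCh38.p14 in the direction of the gene, from 250 bases before to 50 bases after a transcription start: CDK4 at chr12:57752261-57752560, CDK6 at chr7:92836524-92836823 and RBL1 at chr20:37095948-37096247, all on the minus strand. The CDK4 start used by RefSeq lies 3703 nt inside the outermost start of the GENCODE 29 gene model. Capitals mark the E-box CACGTG, the binding motif of MYC and related factors, in CDK4 and CDK6, and the E2F octamers TTTCGCGC and TTTGGCGC in RBL1.
CDK4: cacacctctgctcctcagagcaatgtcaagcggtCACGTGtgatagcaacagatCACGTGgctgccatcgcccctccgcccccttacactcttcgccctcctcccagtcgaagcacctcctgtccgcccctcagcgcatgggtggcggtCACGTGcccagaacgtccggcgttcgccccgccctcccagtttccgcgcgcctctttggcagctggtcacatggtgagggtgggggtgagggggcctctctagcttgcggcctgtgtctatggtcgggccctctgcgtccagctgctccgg
CDK6: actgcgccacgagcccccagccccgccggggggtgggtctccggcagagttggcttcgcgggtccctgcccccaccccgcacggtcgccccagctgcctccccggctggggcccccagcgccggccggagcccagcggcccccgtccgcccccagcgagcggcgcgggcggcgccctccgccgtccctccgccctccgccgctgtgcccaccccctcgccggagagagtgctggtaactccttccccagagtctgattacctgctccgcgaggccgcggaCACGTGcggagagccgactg
RBL1: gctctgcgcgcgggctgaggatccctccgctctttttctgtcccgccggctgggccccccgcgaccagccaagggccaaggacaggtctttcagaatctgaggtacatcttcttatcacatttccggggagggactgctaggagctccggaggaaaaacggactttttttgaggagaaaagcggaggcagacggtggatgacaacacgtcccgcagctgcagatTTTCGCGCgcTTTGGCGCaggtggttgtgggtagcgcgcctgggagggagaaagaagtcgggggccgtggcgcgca

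With the start site counted as 0, the E-boxes of CDK4 begin at -216, -196 and -101, the E-box of CDK6 begins at 30, and the octamers of RBL1 begin at -26 and -16 without overlapping. CACGTG stood in 7.21% of 34794 distinct RefSeq promoters of the same length, and an E2F octamer (TTTCCCGC, TTTCGCGC, TTTGCCGC or TTTGGCGC, both strands) in 3.31%. Of the 10 members 7 had an entry in the promoter table (not CCND1, CCND2 or CDKN1C), and among the entry of each that lay nearest to the annotated start only RBL1 held an octamer and only CDK4 and CDK6 an E-box. The RB1 entry lies 172724 nt from the annotated start of the gene and was left aside. CDKN1B held 3 matches of CCAAT (34.6% of promoters hold at least 1). The GC box GGGCGG, held by 44.9% of promoters, was matched 5 times in CCND3, 3 times each in CDK4 and CDK6, 2 times in RBL2 and 1 time in CDKN1B.

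Among the D-type cyclins, CCND1 was the dominant transcript in every library and was lower in K29Q cells. CCND1 (ENSG00000110092, chromosome 11 from 69641087 to 69654474, GRCh38, plus strand) encodes cyclin D1. It had 133, 136 and 134 FPKM in K29Q 1 to 3, against 173, 174 and 168 FPKM in WT 1 to 3. The groups did not overlap, and the libraries of each group lay close together, with a coefficient of variation of 1.17% in K29Q and 1.81% in WT. The means were 134 ± 1.58 FPKM in K29Q and 171 ± 3.10 FPKM in WT (SD, n = 3 each), so K29Q was at 0.784 times the WT level, a log2 difference of -0.35 (SE 0.051, on the log2(FPKM + 1) scale, as are all log2 differences here). On flow cell A alone it was -0.36 and on flow cell B -0.34. These are bulk values, in which fewer cells expressing a gene and less RNA per cell cannot be told apart. Quantile normalization brought the log2 difference of CCND1 to -0.27.

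CCND3 (ENSG00000112576, chromosome 6 from 41934933 to 42050357, minus strand), which encodes cyclin D3, was far less abundant and did not separate the groups. Its FPKM was 6.73, 4.44 and 4.88 in K29Q 1 to 3, against 6.38, 5.27 and 7.10 in WT 1 to 3. K29Q 1 lay above WT 1 and WT 2, and K29Q 2 was the lowest library. The log2 difference of -0.20 (SE 0.152) was 0.05 on flow cell A, with WT 2 as its only WT library. On flow cell B, with K29Q 3 as its only K29Q library, it was -0.40. Whether the flow cell had a part in these signs was not tested. The log2 difference was -0.35 without K29Q 1, -0.10 without K29Q 2, -0.30 without WT 2 and -0.12 without WT 3. CCND2 (ENSG00000118971, chromosome 12 from 4273772 to 4305350, plus strand), the gene of cyclin D2, had between 0.00393 and 0.0140 FPKM in K29Q and between 0.0111 and 0.0155 FPKM in WT. It was the single member that failed the filter of at least 1 FPKM in at least 3 libraries, and no fold is given. CCND1 thus supplied 95.2% to 96.8% of the summed D cyclin FPKM in K29Q and 95.9% to 97.1% in WT, and the sum was 139.8 ± 0.959 FPKM in K29Q and 178 ± 2.33 FPKM in WT.

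**Figure D1:**
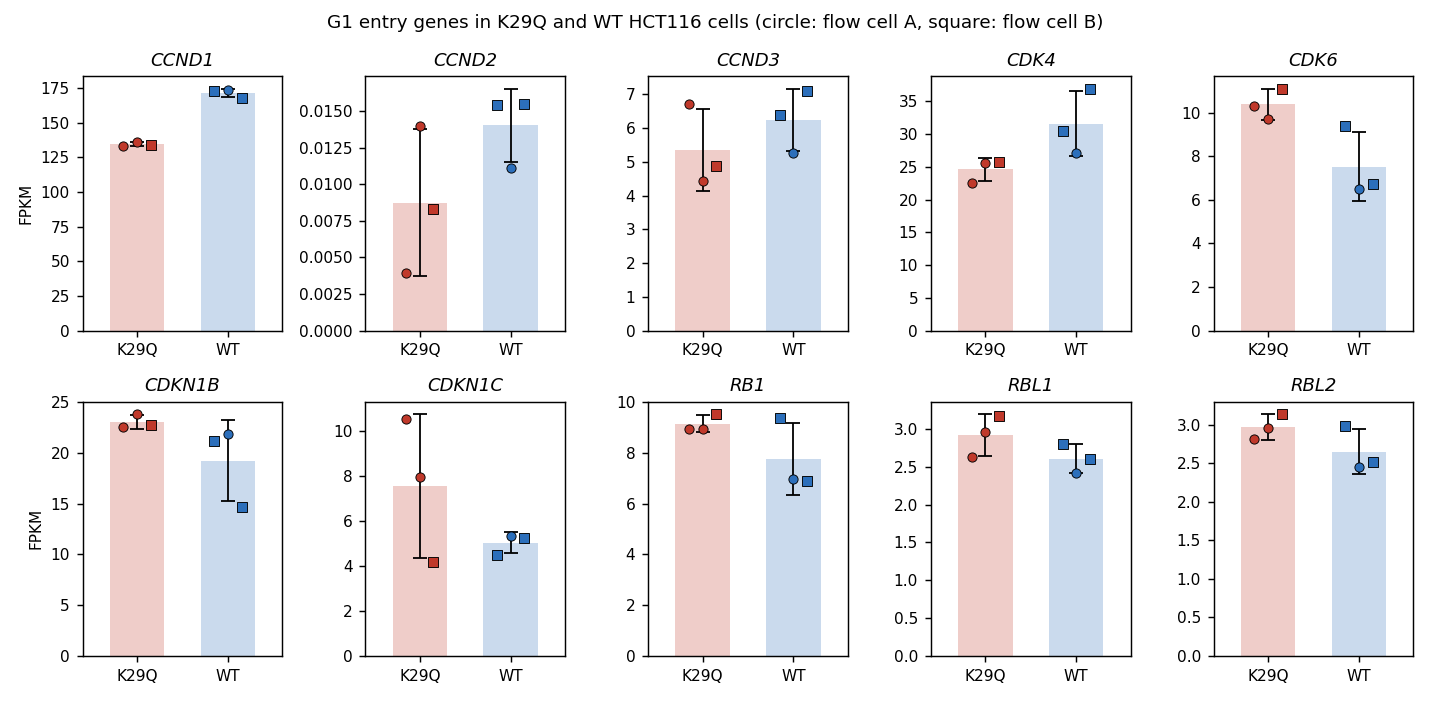
FPKM (vertical axes, linear and from 0, different for each gene) of the 10 genes in K29Q and WT libraries. Bars are means, error bars SD (n = 3), and points single libraries, circles for flow cell A and squares for flow cell B. The 3 K29Q points of CCND1 lie between 133 and 136 FPKM, below the WT points at 168 to 174 FPKM, while the groups interleave for CCND3, CDKN1C and the RB family.

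The 2 kinases that cyclin D activates differed in opposite directions. CDK4 (ENSG00000135446, chromosome 12 from 57747727 to 57756013, minus strand) had 22.5, 25.6 and 25.7 FPKM in K29Q 1 to 3, against 30.6, 27.2 and 37.0 FPKM in WT 1 to 3. All K29Q libraries lay below all WT libraries, and WT 3 stood highest. The mean was 24.6 ± 1.80 FPKM in K29Q and 31.6 ± 4.97 FPKM in WT, a ratio of 0.780 and a log2 difference of -0.34 (SE 0.117). Without WT 3 it was -0.22. On flow cell A the difference was -0.17, and on flow cell B -0.37.

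CDK6 (ENSG00000105810, chromosome 7 from 92604921 to 92836594, minus strand), the close relative of CDK4, had 10.3, 9.72 and 11.1 FPKM in K29Q 1 to 3, against 9.37, 6.49 and 6.73 FPKM in WT 1 to 3. Its groups did not overlap either, but WT 1 lay close to K29Q 2, and the other WT libraries well below. The mean was 10.4 ± 0.697 FPKM in K29Q and 7.53 ± 1.6 FPKM in WT, a ratio of 1.38 and a log2 difference of 0.43 (SE 0.131). Flow cell A gave 0.56 and flow cell B 0.44. With 1 library left out, the log2 difference ran from 0.34 without WT 2 to 0.58 without WT 1.

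Within each library, CDK4 exceeded CDK6 2.19-, 2.63- and 2.32-fold in K29Q 1 to 3, against 3.26-, 4.19- and 5.50-fold in WT 1 to 3. This ratio, which cancels any scaling of a whole library but not a trend with GC content, averaged 2.38 ± 0.229 in K29Q and 4.32 ± 1.12 in WT. The groups did not overlap, which follows from CDK4 being lower and CDK6 higher in every K29Q library than in any WT library. CDK4 has 53.6% GC and CDK6 39.5%. With the GC and length correction described next to the GC content plot, their log2 differences were -0.29 and 0.25. The 2 kinases summed to 32.8, 35.3 and 36.8 FPKM in K29Q and to 39.9, 33.7 and 43.7 FPKM in WT, where the groups overlapped. The ratio of D cyclin FPKM to kinase FPKM was 4.26, 3.99 and 3.77 in K29Q and 4.48, 5.31 and 4.0 in WT. That ratio overlapped between the groups as well.

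**Figure D2:**
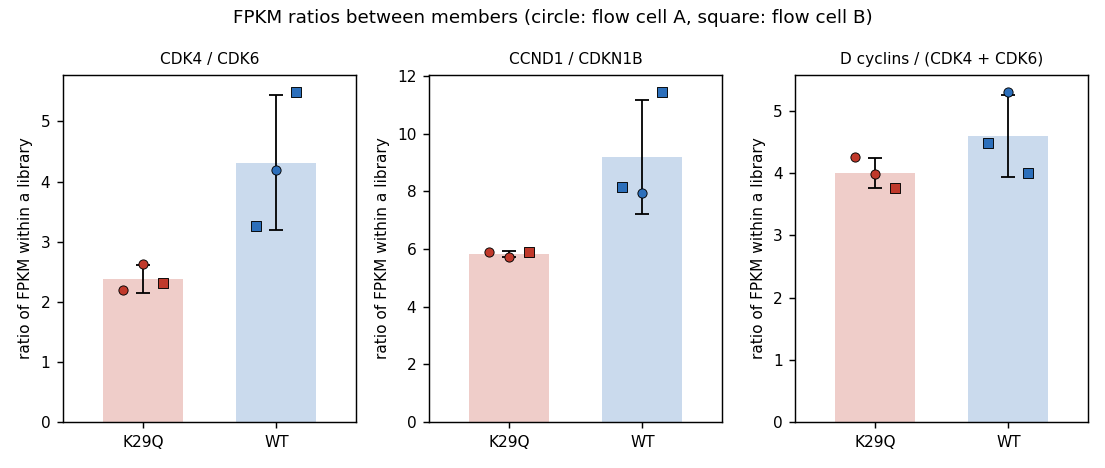
Ratios of FPKM within a library (vertical axes from 0) for CDK4 over CDK6, CCND1 over CDKN1B, and the summed D cyclins over CDK4 plus CDK6. Bars are means, error bars SD (n = 3), circles flow cell A and squares flow cell B. The first 2 ratios do not overlap between K29Q and WT, at 2.19 to 2.63 against 3.26 to 5.50 for the kinases, and the third does. The separation of the first 2 follows from their genes, which do not overlap either and differ in opposite directions.

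The inhibitors were higher on average in K29Q cells, but neither was so evenly across libraries. CDKN1B (ENSG00000111276, chromosome 12 from 12715058 to 12722371, plus strand) had 22.5, 23.8 and 22.8 FPKM in K29Q 1 to 3, against 21.2, 21.9 and 14.6 FPKM in WT 1 to 3. The groups did not overlap, yet WT 1 and WT 2 lay just below the K29Q libraries and WT 3 far below. The log2 difference was 0.27 (SE 0.144), 0.09 without WT 3, 0.08 on flow cell A and 0.35 on flow cell B, which holds WT 3. CCND1 exceeded CDKN1B 5.91-, 5.71- and 5.88-fold in K29Q 1 to 3, against 8.14-, 7.94- and 11.5-fold in WT 1 to 3. The groups did not overlap in that ratio, as follows from CCND1 being lower and CDKN1B higher in every K29Q library. WT 3 again stood apart.

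CDKN1C (ENSG00000129757, chromosome 11 from 2883213 to 2885773, minus strand), an imprinted gene, was the least even of the tested members in K29Q, though not in WT. It had 10.5, 7.97 and 4.18 FPKM in K29Q 1 to 3, against 4.49, 5.34 and 5.25 FPKM in WT 1 to 3. K29Q 3 was the lowest of the 6 libraries and K29Q 1 the highest, with a coefficient of variation of 42.3% in K29Q and 9.30% in WT. The log2 difference of 0.43 (SE 0.268) was 0.68 on flow cell A and -0.18 on flow cell B, while it was 0.18 without K29Q 1 and 0.76 without K29Q 3. Both K29Q libraries on flow cell A were above the WT libraries, and the 1 on flow cell B was below them.

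The pocket proteins overlapped between the groups in all 3 cases. RB1 (ENSG00000139687, chromosome 13 from 48303726 to 48599436, plus strand), the retinoblastoma tumour suppressor, had 8.94, 8.96 and 9.53 FPKM in K29Q 1 to 3, against 9.38, 6.99 and 6.90 FPKM in WT 1 to 3. WT 1 lay among the K29Q libraries, as it nearly did for CDK6. RBL1 (ENSG00000080839, chromosome 20 from 36996349 to 37095995, minus strand), which binds the repressor E2Fs in cycling cells, had 2.63, 2.96 and 3.18 FPKM in K29Q against 2.80, 2.42 and 2.60 FPKM in WT. RBL2 (ENSG00000103479, chromosome 16 from 53433977 to 53491649, plus strand), the main pocket protein of resting cells, had 2.82, 2.96 and 3.14 FPKM in K29Q against 2.99, 2.45 and 2.51 FPKM in WT. The log2 differences were 0.22 (SE 0.113) for RB1, 0.12 (SE 0.081) for RBL1 and 0.12 (SE 0.080) for RBL2. With 1 library left out, that of RB1 ran from 0.16 without WT 3 to 0.35 without WT 1. That of RBL1 ran from 0.07 to 0.17, and that of RBL2 from 0.09 to 0.19, with 1 library left out. RB1 made up 60.8% ± 1.16 of the summed FPKM of the family in K29Q and 59.4% ± 2.24 in WT (SD, n = 3 each). RBL1 and RBL2 stood at similar levels, with RBL2 over RBL1 between 0.989 and 1.07 in K29Q and between 0.965 and 1.07 in WT.

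The order of the levels was alike across libraries. CCND1, CDK4 and CDKN1B came first, in this order, in all 6 libraries, and CCND2 came last. CDK4 and CDKN1B were neighbours, and the gap between them was within the spread of K29Q: K29Q 1 had 22.5 FPKM of each. Below them RB1, CDK6, CDKN1C and CCND3 changed places from library to library, with CDK6 above RB1 in the 3 K29Q libraries and below it in the 3 WT libraries. The gap was small in WT 1, with 9.37 FPKM of CDK6 and 9.38 FPKM of RB1, and in WT 3, with 6.73 and 6.90 FPKM. RBL1 and RBL2 also exchanged places and did not differ beyond their spread. Among all tested genes CCND1 lay at the 98.7th percentile of mean FPKM, CDK4 at the 90.6th, CDKN1B at the 86.7th, and RBL1 and RBL2 at the 29.48th and 29.99th.

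Over all 13261 tested genes, 7 passed the threshold of an adjusted p of 0.05 (limma, Benjamini-Hochberg), which is 0.0528% of them, and of the 9 tested members 0 passed. The 7 genes were 4 higher and 3 lower in K29Q, a split of 9 and 4 with quantile normalization and of 60 and 21 after the GC and length correction described next to the GC content plot. An unadjusted p under 0.05 was reached by 3 members (CCND1, CDK4 and CDK6) and by 12.5% of all tested genes. The groups did not overlap, K29Q lower, for 2 members (CCND1 and CDK4) and for 9.00% of all tested genes. They did not overlap, K29Q higher, for 2 members (CDK6 and CDKN1B) and for 8.80% of all tested genes. As this comparison had chosen the members, nothing is read from these counts. A log2 difference as large as that of CCND1, in either direction, was found for 4.98% of all tested genes. The share was 2.58% for CDK6 and 2.53% for the uneven CDKN1C. For the other tested members it ran from 5.48% (CDK4) to 39.8% (RBL1). These shares take no account of the spread between libraries, and nothing is read from them either. The members' log2 differences ran from -0.35 to 0.43 with a median of 0.12, against a median of 0.00 over all tested genes.

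**Figure D3:**
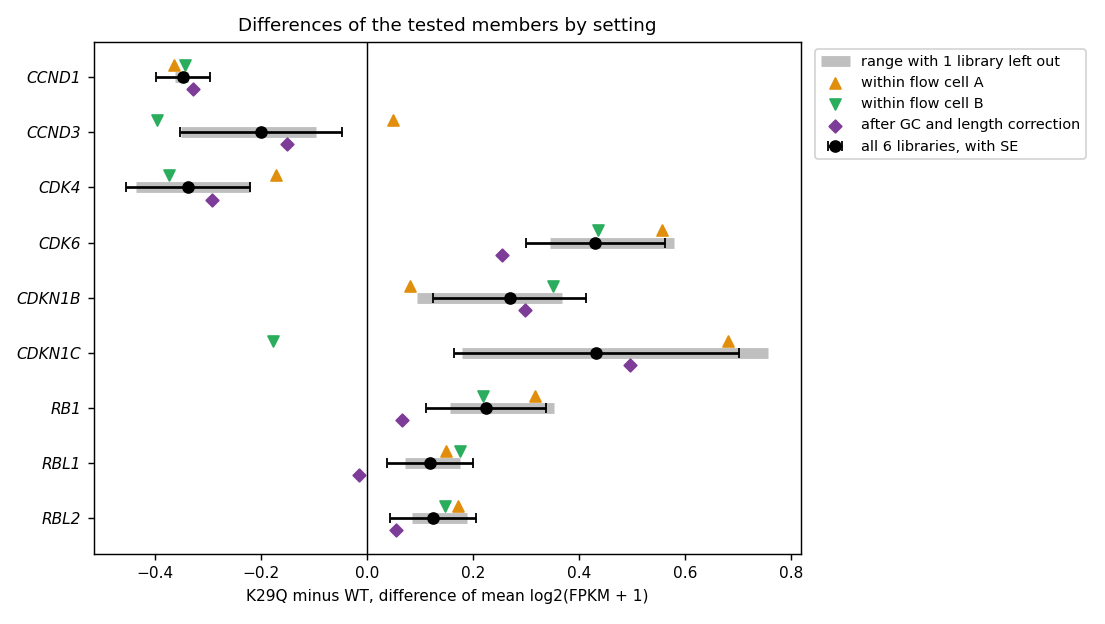
Difference of mean log2(FPKM + 1), K29Q minus WT, of the 9 tested members, in rows. Black points with SE bars use all 6 libraries, grey bars span the values with 1 library left out, triangles are differences within each flow cell, and diamonds are values after correction for GC content and length. CCND1 stays between -0.36 and -0.33 in all of these, whereas CDKN1C and CCND3 have opposite signs in the 2 flow cells and RBL1 moves from 0.12 to -0.02 after the correction.

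The members differ in base composition, and differences across all genes followed it. The median log2 difference was 0.15 among tested genes with a GC content of up to 40% and -0.05 among those over 60%. A library's deviation from the gene mean changed, per 10% of GC content, by 0.018, -0.056 and -0.069 in K29Q 1 to 3 and -0.041, 0.030 and 0.118 in WT 1 to 3, so WT 1 lay among the K29Q libraries. RB1, at 37.3% GC, is the most AT-rich member, followed by CDK6 at 39.5%, RBL1 at 40% and RBL2 at 43.2%, and all 4 were higher on average in K29Q. Genes within 2% of GC content of each had a median log2 difference of 0.16 for RB1, 0.13 for CDK6, 0.12 for RBL1 and 0.04 for RBL2. With the GC and length trends of each library removed, the log2 difference was 0.06 for RB1, 0.25 for CDK6, -0.02 for RBL1 and 0.05 for RBL2. For CCND1, CDK4, CDKN1B and CDKN1C it was -0.33, -0.29, 0.30 and 0.50, close to the uncorrected values, and for CCND3 it was -0.15. CDKN1B, at 47.7% GC, and CDKN1C, the most GC-rich member at 63.8%, were also higher on average in K29Q. CCND1, CDK4 and CCND3, at 50.3%, 53.6% and 56.2% GC, were lower.

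**Figure D4:**
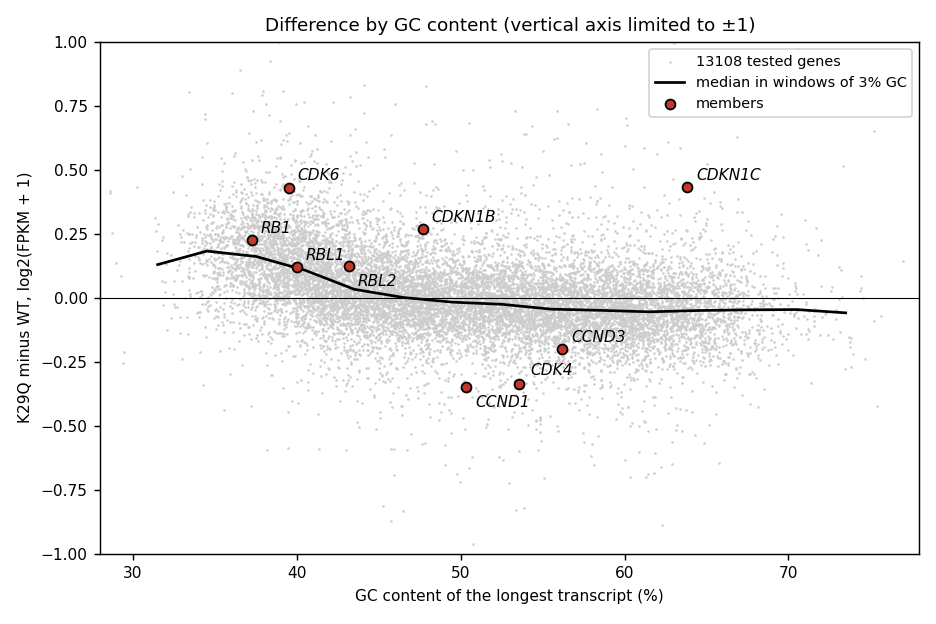
Difference of mean log2(FPKM + 1), K29Q minus WT (vertical axis, limited to ±1), against the GC content of the longest annotated transcript, for 13108 tested genes with a value (grey) and the 9 tested members (red). The black line is the median in windows of 3% GC. RBL1 lies on the line, RB1 and RBL2 lie near it, and CDK6, CCND1, CDK4, CDKN1B and CDKN1C lie away from it.

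Several members share their locus with other gene models, and the strand option of the counting is not given, so reads of overlapping models may have been divided. CDK4 overlaps TSPAN31, at 1.80 to 2.24 FPKM over the 6 libraries, and MARCH9, at 6.88 to 8.98 FPKM, both on the other strand. MARCH9 appears in the deposited table under a number in place of its symbol and was matched by its gene ID. RBL2 overlaps AKTIP on the other strand, which at 2.54 to 2.77 FPKM was as abundant as RBL2. CDKN1B overlaps an intronic model on its own strand at 1.40 to 2.22 FPKM, and CCND1 overlaps ORAOV1 at 0.831 to 1.47 FPKM. Models that overlap CCND2, CCND3, CDK6, RB1 or RBL1 had less than 1 FPKM in all libraries.

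Of the other genes that control G1, 67 in 6 lists, 64 were tested. None of the 64 passed the threshold over all genes (limma, smallest adjusted p = 0.324), and 10 reached an unadjusted p under 0.05, 5 higher and 5 lower in K29Q, beside 12.5% of all tested genes. Their median log2 difference was -0.04. These lists were drawn up with earlier results of the same libraries known.

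Among the INK4 inhibitors and p21, 2 of 5 tested genes lay above 0 and 3 below. CDKN2B (p15), which blocks CDK4 and CDK6, had 4.55, 4.34 and 4.70 FPKM in K29Q against 3.37, 3.47 and 3.95 FPKM in WT, with no overlap (log2 difference 0.27, SE 0.073, limma adjusted p = 0.324). CDKN1A (p21), the best-known p53 target among the CDK inhibitors and the most abundant inhibitor here, had 110.03, 105.5 and 101.7 FPKM in K29Q against 116, 120.4 and 127 FPKM in WT (log2 difference -0.19, SE 0.062, limma adjusted p = 0.365). CDKN2C (p18) averaged 7.63 FPKM in K29Q and 8.62 FPKM in WT, with overlapping groups (log2 difference -0.15, and -0.09 without WT 3). The inhibitors thus lay on both sides of 0, with none past the threshold.

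In the cyclin E, cyclin A and CDK2 module, which acts after cyclin D, 4 of 8 tested genes lay above 0 and 4 below, and differences were small. CCNE1 (cyclin E1) averaged 7.47 FPKM in K29Q and 8.49 FPKM in WT (log2 difference -0.17). CDK2 averaged 13.1 FPKM in K29Q and 14.0 FPKM in WT (-0.09), and CCNH, the cyclin of the CDK-activating kinase, 5.18 FPKM in K29Q and 4.72 FPKM in WT (0.11). Without K29Q 1 the log2 difference was -0.10 for CCNE1 and -0.05 for CDK2. That of CDK2 was -0.05 and that of CCNH turned to -0.03 once GC content and length were corrected for.

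The E2F and DP factors, which the pocket proteins bind, split evenly, with 5 of 10 above 0 and 5 below. E2F4, the usual partner of RBL1 and RBL2, had 16.1, 14.6 and 15.04 FPKM in K29Q against 17.2, 17.1 and 18.2 FPKM in WT (log2 difference -0.19, SE 0.064, limma adjusted p = 0.368). E2F1, an activator held by RB1, averaged 16.1 FPKM in K29Q and 18.6 FPKM in WT (-0.20), and the dimer partner TFDP2 2.79 FPKM in K29Q and 2.47 FPKM in WT (0.13). Groups did not overlap for any of these 3 genes, which were named for the smallest p of the list. Of its 10 genes 1 did not overlap with K29Q higher and 3 with K29Q lower. Among all tested genes these shares were 8.80% and 9.00%. Without WT 3 the log2 difference of E2F1 was -0.12, and with the GC and length correction that of TFDP2 was 0.08.

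In the MuvB core, B-MYB and FOXM1 list, whose products join p107 or p130 in the DREAM repressor or switch on late cell cycle genes, 5 of 7 lay above 0 and 2 below. LIN52, the subunit that docks p107 and p130, had 3.56, 2.41 and 2.50 FPKM in K29Q against 2.29, 1.6 and 1.18 FPKM in WT (log2 difference 0.51, SE 0.174, limma adjusted p = 0.369). LIN9, another MuvB subunit, averaged 3.36 FPKM in K29Q and 2.95 FPKM in WT, and LIN54, a DNA-binding subunit, 3.90 FPKM in K29Q and 3.28 FPKM in WT. With the GC and length correction their log2 differences were 0.06 and 0.04, against 0.15 and 0.19 without it, while that of LIN52 was 0.48. That of LIN54 was 0.12 without K29Q 3 and 0.13 without WT 2.

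Genes for the turnover of D cyclins and p27 lay above 0 in 6 of 14 cases and below in 8. SKP1, an adaptor of SCF ubiquitin ligases, averaged 5.86 FPKM in K29Q and 5.09 FPKM in WT (log2 difference 0.17, limma adjusted p = 0.379). The cullin CUL1 had 26.4, 22.9 and 28.4 FPKM in K29Q against 26.7, 16.8 and 15.4 FPKM in WT, with WT 1 again among the K29Q values. CUL4B averaged 17.3 FPKM in K29Q and 14.2 FPKM in WT and likewise had its highest WT value in WT 1. The log2 difference of CUL1 was 0.42, against 0.65 without WT 1 and 0.27 without WT 3. With the GC and length correction that of SKP1 was 0.04, and that of CUL4B was 0.13, against 0.28 uncorrected.

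E2F target genes of the G1/S transition lay below 0 in 17 of 20 cases and above in 3, with a median log2 difference of -0.08. Of all 13261 tested genes 6502 lay below 0 and 6759 above. As the list was drawn up with earlier results known, nothing is read from its split. CDT1, a replication licensing factor, averaged 30.2 ± 3.19 FPKM in K29Q and 36.5 ± 3.02 FPKM in WT (log2 difference -0.27, limma adjusted p = 0.38). GINS2, a part of the replicative helicase, averaged 13.6 FPKM in K29Q and 15.1 FPKM in WT with no overlap (-0.14). With the GC and length correction the log2 difference was -0.22 for CDT1 and -0.11 for GINS2. POLA1, the catalytic subunit of DNA polymerase alpha, averaged 5.57 FPKM in K29Q and 4.64 FPKM in WT (0.22, and 0.14 with the GC and length correction). Of the 20 genes 4 reached an unadjusted p under 0.05, 1 higher and 3 lower in K29Q, and 0 passed over all genes. At the same limit 12.5% of all tested genes were found, 1015 higher and 649 lower in K29Q, so nothing particular to the list is read from its 4.

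**Figure D5:**
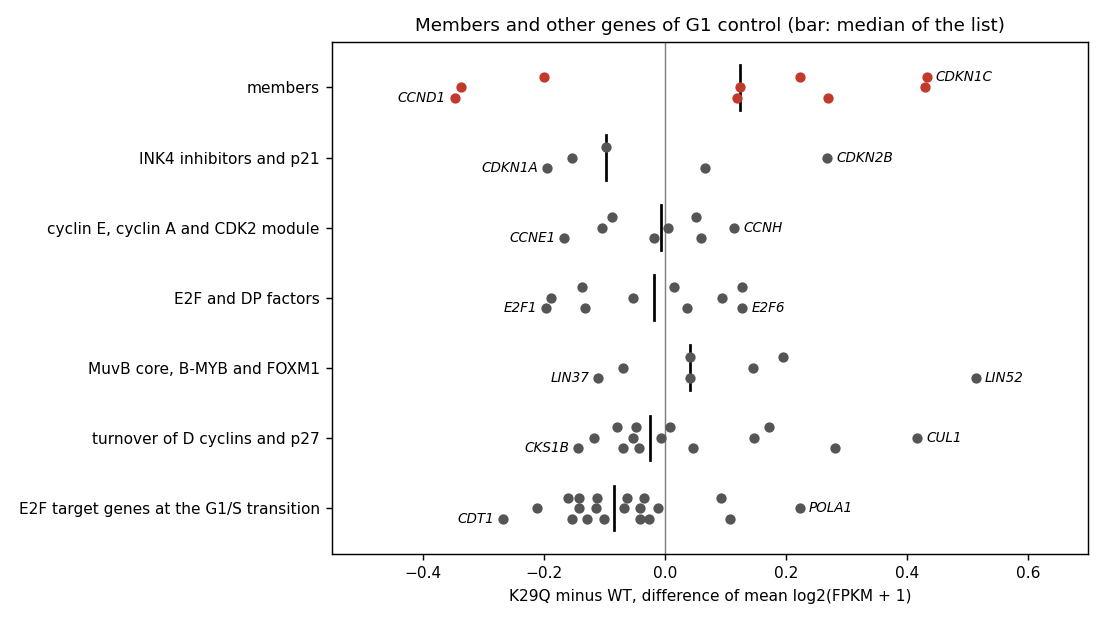
Difference of mean log2(FPKM + 1), K29Q minus WT, of the 9 tested members (red) and of the 64 other tested genes of G1 control (grey), 1 point a gene and 1 row a list, with the lowest and highest gene of each list named. Vertical bars are medians of the lists. E2F target genes have a median of -0.08, and the members run from -0.35 (CCND1) to 0.43 (CDKN1C).

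The genes whose values over the 6 libraries were most like those of a member were sought for the 3 members with the largest differences, among 6258 genes with a mean of at least 5 FPKM. Closest to CCND1 were CST6 (Pearson r = 0.996 over 6 libraries), LATS2 (0.993) and KLK6 (0.988), and 126 genes reached an r of at least 0.9. Like CCND1, these genes were lower in all K29Q libraries than in any WT library, at 58.5 FPKM in K29Q against 70.8 FPKM in WT on average for CST6. Closest to CDK6 were TYW3 (0.999), SMG1 (0.998) and SEC62 (0.998), and 543 genes reached 0.9. For CDKN1C they were RAP1GAP2 (0.965), PEX5 (0.956) and SDC1 (0.956), and 11 genes reached 0.9. All points share libraries and the group difference, so these values describe likeness only.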

How the data were processed

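Total RNA of 3 K29Q and 3 WT HCT116 libraries was measured. The authors deposited an FPKM value for each gene in each library, as the file headers name it. The submitters' processing notes name HISAT2 2.1.0, StringTie and GRCh38. The annotation, settings and strand option, and which StringTie version was run, are not given in the sources. No counts were available, so no count test was run, and 0 columns belonged to other samples. Columns were matched to samples by title.

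Genes with at least 1 FPKM in at least 3 libraries (13261 of 60675) were fitted as log2(FPKM + 1) with limma 3.58.1 (R 4.3.3), with the group as the only term and an intensity trend. P-values are two-sided with Benjamini-Hochberg adjustment over all 13261 genes at a threshold of 0.05. A fold on this scale understates the change of low genes. The code was tested on simulated data. Members and gene lists were chosen with earlier results of these data known. The text names all members, PHF5A, the 3 genes with the smallest p of each of 6 lists, and the 3 genes most like each of the 3 members with the largest differences. Genes of the overlap paragraph and the cell type markers named in the text lie outside this rule and were named after their values were seen.

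Positions, overlaps, GC content and length of the longest transcript come from GENCODE 29 (GRCh38), which held 13124 of the tested IDs, and 13108 of them had a transcript sequence. The correction fitted each library's deviation from the gene mean with natural splines of 5 degrees of freedom on GC content and on log2 length. Depth was estimated from the steps of FPKM times length in single-exon genes over 600 nt that overlap no other gene. The search covered a preset range of depths only. A minor peak at smaller steps was read as single mates of a fragment. No library was a copy of another (pairwise Pearson r of log2 values from 0.978 to 0.987). Alternatives were quantile normalization, no filter, a mean of at least 5 FPKM, a pseudocount of 0.1, no intensity trend, the replicate number as a block, a flow cell term, the GC and length correction alone and with the block, and each library left out.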

Additional observations from a re-analysis of the deposited data

How the results depend on the processing

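The count of genes past the threshold, 7 in the fit reported, moved with the processing. It was 13 with quantile normalization, 2 with no filter on low values, 3 with the replicate number as a block, 4 with a flow cell term and 81 after GC and length correction (60 higher, 21 lower). The correction together with the replicate block left 1, and with a flow cell term, a combination chosen after seeing the data, 5. With 1 library left out the count ran from 5 to 20, the highest without WT 1, and it was 12 without K29Q 1. The cause was not tested. Same-numbered libraries deviated together with correlations of -0.14, 0.18 and -0.16, and differently numbered ones with -0.12 to 0.25. Not every library thus correlated best with its own number. A pairing by number is not shown by these values, and with 3 libraries a group they cannot exclude it. Of the other G1 control genes 0 passed in each of these settings, the replicate block and every left-out library included. The 81 genes (0.618% of those tested) included 1 member, CCND1. As this comparison chose the members, nothing is read from that, and 0 members were among the genes of the other settings. The log2 difference of CCNH reversed to -0.034 after the correction, with and without the block, and to -0.042 with the flow cell term added. PHF5A passed after the correction alone (log2 difference 0.44, limma adjusted p = 0.0168), not in the fit reported (0.11), nor in the correction with the replicate block (0.137) or the flow cell term (0.0683), nor in any other setting. Without counts, precision at low FPKM is limited, and differences of RBL1 and RBL2 lie near the spread of their libraries.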
